A study of Mus musculus with 6 samples.

Results

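Mitochondria keep their own supply of NADPH, the electron donor that peroxide-clearing enzymes of the matrix consume, and 10 nuclear genes of that supply and its use are described here in haematopoietic stem cells (HSCs) of young and old mice. Of the 16312 genes counted, the 10 were chosen by symbol, with their young and old levels in this same table already known, so their differences with age are a description: no p-value is given for any of them, and a call only repeats what was in view when they were chosen. They are 5 mitochondrial NADPH sources (Nnt, Idh2, Me2, Me3 and Mthfd2), the peroxiredoxins Prdx3 and Prdx5, mitochondrial thioredoxin Txn2 with its reductase Txnrd2, and the glutathione reductase Gsr. The HSCs were sorted from bone marrow of male mice by flow cytometry, with 3 biological replicates aged 8 to 12 weeks and 3 aged 22 months at the procedure; whether a replicate held cells of 1 mouse or of several is not stated in the labels. The labels call both groups B6 controls and name parabiosis in the titles, with no transgene or agent named, and the series title gives C57BL/6N as the strain. All 10 genes had counts in every library, the lowest being 12 counts of Me3 in young replicate 1, and all 10 passed the filter on low counts, as did 14288 genes in all.

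NADPH is made inside mitochondria by several routes, because it does not cross the inner membrane. Nnt, the nicotinamide nucleotide transhydrogenase, uses the proton gradient to pass hydride from NADH to NADP+. Idh2 and the malic enzymes can reduce NADP+ while oxidising citrate cycle acids, and Mthfd2 can do so in the folate pathway. The electrons then go from NADPH through Txnrd2 and Txn2 to Prdx3 and Prdx5, which reduce peroxides, or through Gsr to glutathione. Stem cells of the marrow keep low levels of reactive oxygen while quiescent. Nnt is also known as a strain marker, since C57BL/6J mice carry a deletion within the gene and lack a working protein, whereas C57BL/6N mice do not.

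The libraries held between 12494557 and 30931680 counts, and old replicate 2 was the smallest. HSC markers were present in all 6 (Kit, Hlf and Mecom among 10 of 10 tested), and 2 of the 10 rose by edgeR, Procr and Slamf1, with 4 higher by DESeq2. By edgeR, proliferation genes were lower in old libraries for 11 of 12, with a summed level of 3839 to 4472 CPM (counts scaled to the same library size) in young and 1919 to 2494 CPM in old libraries. Markers of macrophages were lower for 8 of 12 tested, with summed levels of 86.9 to 110 CPM against 33.8 to 42.4 CPM, and Fcna, Cd5l, C1qb and Adgre1 had no count in any old library. Erythroid markers were lower for 6 of 11 tested (81.0 to 299 against 27.8 to 34.6 CPM) and neutrophil markers for 4 of 5 (16.6 to 237 against 5.57 to 8.43 CPM), both highest in young replicate 1. DESeq2 also called 6 erythroid and 4 neutrophil markers lower, whereas limma-voom called 0 of either, and 3 and 1 with quality weights. The part of these other cells and of cycling cells in the results below was not tested. In bulk RNA of sorted cells, fewer cells of a type and less RNA per cell cannot be told apart.

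Nnt was lower in old mice and was the only one of the 10 genes called in the test across all genes (edgeR's quasi-likelihood test, adjusted p below 0.05). The count was 1 of 10 called lower, where 1.54% of all tested genes were, and 0 of 10 called higher, where 2.45% were. By unadjusted p, 3 of 10 were lower (Nnt, Me2 and Mthfd2) and 1 higher (Prdx5), against 7.63% and 8.84% of all tested genes. DESeq2 and limma-voom with quality weights each called 2 lower, Nnt and Mthfd2, limma-voom called Nnt alone, and none of the 3 called any of the 10 higher. The CPM of the 2 age groups did not overlap for 4 of the 10, Nnt, Me2, Mthfd2 and Prdx5, as for 22.4% of all tested genes. Since the genes were chosen with these values known, nothing is read from these shares. The median log2 fold change over the 10 genes was 0.11 and over all tested genes −0.02, with 5 genes above and 5 below 0.

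**Figure D1:**
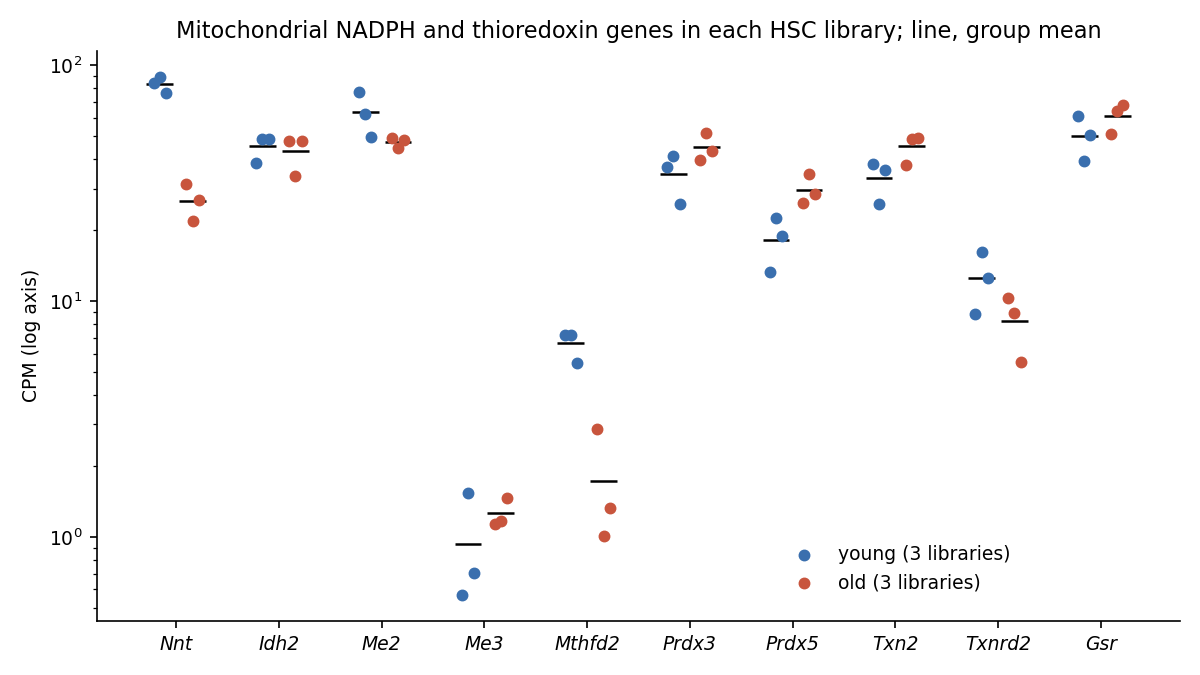
Level of each of the 10 genes in CPM (log axis) in every library, with young libraries in blue, old libraries in red and the group mean as a black line. Nnt lies at 76.3 to 89.6 CPM in young and 21.8 to 31.3 CPM in old libraries, with a wide gap, whereas most of the others overlap.

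Nnt spans chromosome 13 from 119335448 to 119408997 on the minus strand (GRCm38), and its longest annotated coding transcript has 17 exons and 3464 bases. It stood at 84.2, 89.6 and 76.3 CPM in young replicates 1 to 3 and at 31.3, 21.8 and 26.9 CPM in old replicates 1 to 3. Every old library was thus well below every young one, by more than the spread within either group. The means were 83.4 ± 6.67 and 26.7 ± 4.77 CPM (SD, n = 3), a log2 fold change of −1.64 ± 0.18 (SE), which is 3.11-fold lower. It was called lower in all 14 alternative fits, with log2 values from −1.76 to −1.51. The values rest on 6556 counts in the young and 1591 in the old group, with 260 in old replicate 2 as the smallest. Old libraries were not empty of Nnt, and which exons the counts came from is not recorded in a table of counts per gene. RefSeq names C57BL/6J as the strain of the GRCm38 assembly, so reads from the part of Nnt that C57BL/6J lacks have no place in transcripts built on that assembly, and no source here names the transcript set the authors used.

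None of the tested genes near Nnt, all on one side of it, was called lower by edgeR, DESeq2 or limma-voom. Within 500 kb, 8 other counted genes were tested. All 8 had start sites on the same side, 19.6 to 382 kb from that of Nnt, and no counted gene lay on the other side. By edgeR 0 were called in either direction. By unadjusted p 3 were higher and 0 lower, where 8.84% and 7.63% of all tested genes were. DESeq2 called 2 of the 8 higher, and limma-voom called 1 higher with and without quality weights. Paip1, the nearest, whose start lies 19.6 kb from that of Nnt and which encodes a translation regulator that binds poly(A)-binding protein, had a mean of 52.5 ± 17.1 CPM at the young and 55.3 ± 2.59 CPM at the old age (SD, n = 3). Hmgcs1, the cytosolic HMG-CoA synthase of sterol synthesis, stood at 45.8 ± 4.16 and 43.3 ± 6.98 CPM, and Zfp131 at 71.1 ± 8.76 and 77.2 ± 10.3 CPM. Nim1k had the most negative log2 value of the 8, −0.64 ± 0.39 SE, at 9.45 ± 4.02 and 6.04 ± 1.41 CPM (adjusted p = 0.470, edgeR). The 3 higher by unadjusted p were Tmem267, Ccl28 and 4833420G17Rik. Tmem267 stood at 3.74 ± 4.11 CPM in young and 16.8 ± 3.30 in old libraries (log2 2.16 ± 0.62 SE, adjusted p = 0.0843, edgeR). Ccl28 stood at 1.14 ± 0.516 and 4.48 ± 2.44 CPM (log2 1.96 ± 0.64 SE, adjusted p = 0.133, edgeR). 4833420G17Rik measured 74.2, 103 and 109 CPM in young and 117, 121 and 125 CPM in old libraries. Its start lies 53.8 kb from that of Nnt, and its log2 value was 0.34 ± 0.15 SE (adjusted p = 0.287, edgeR). 3110070M22Rik, under 1 CPM on average, had a log2 value of 1.74 ± 1.00 SE. The window was chosen after the value of Nnt was seen.

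Some other genes known to differ in sequence or expression between C57BL/6 substrains were also called. Of 6 listed, Crb1 and Nlrp12 were below the filter, 2 of the 4 tested rose, 1 fell and 1 did not pass. Over all tested genes, 2.45% were called higher and 1.54% lower. The list was chosen with earlier results of these data known, so nothing is read from these counts. Wdfy1, an endosomal adaptor protein, stood at 91.1, 99.3 and 101 CPM in the young and 45.2, 46.9 and 38.7 CPM in the old libraries, a log2 fold change of −1.16 ± 0.14 SE (adjusted p = 0.000949, edgeR). Ide, the insulin-degrading enzyme, measured 211, 198 and 196 CPM in the young and 386, 322 and 375 in the old libraries, and rose by 0.84 ± 0.11 on the log2 scale (adjusted p = 0.00114, edgeR). Young and old libraries did not overlap for either gene, and both stayed called in all 14 alternative fits (adjusted p between 1.48e-11 and 0.00999 for Wdfy1 and between 3.89e-10 and 0.0118 for Ide). Entpd4, a nucleotide diphosphatase of the Golgi and lysosome, was at 39.5 ± 5.37 CPM in young and rose to 79.1 ± 13.2 CPM in old libraries (SD, n = 3). Its adjusted p was 0.00776 by edgeR, and it lost its call without old replicate 3 (log2 value 0.88, adjusted p = 0.0552). The annotation also holds a copy named Entpd4b, which has no row in the table, so the count of Entpd4 is uncertain. Cyfip2, a partner of the FMR1 protein, stood at 432 ± 30.5 and 405 ± 7.36 CPM (adjusted p = 0.722, edgeR). The labels do not give the substrain or source of single mice, so age and any difference of substrain or source between the groups cannot be told apart for these genes or for Nnt.

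**Figure D2:**
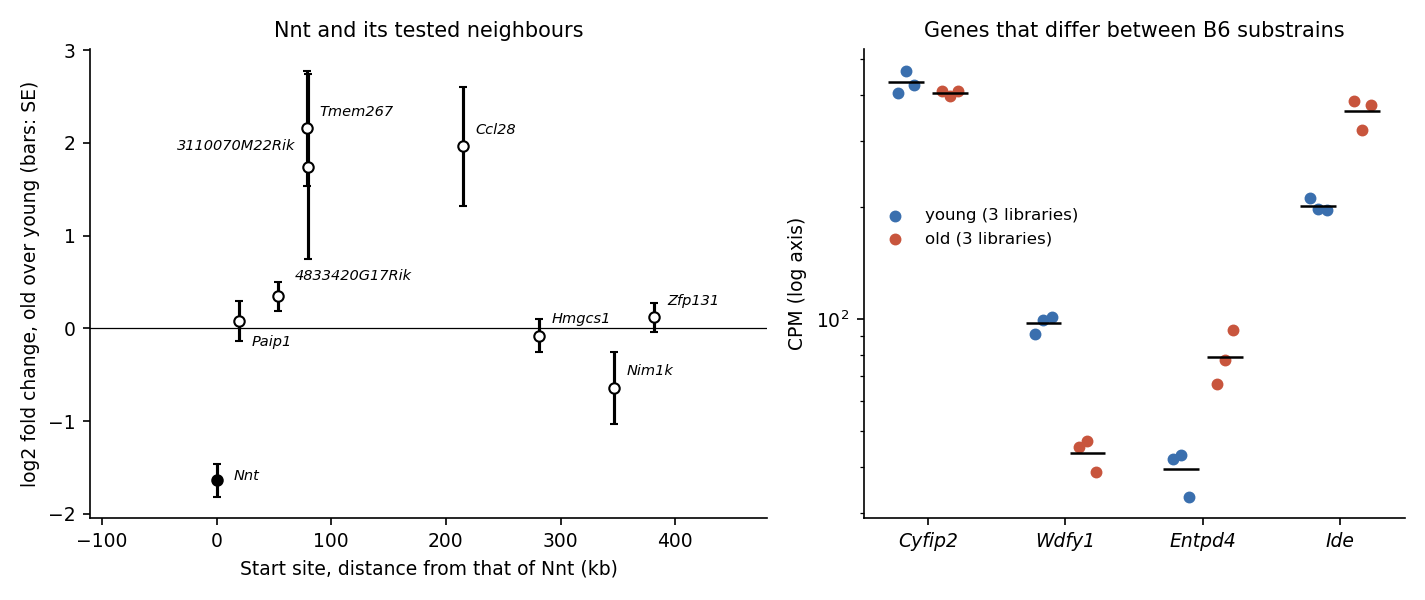
Left, log2 fold change (old over young, bars are SE) of Nnt and its tested neighbours against the distance of their start sites in kb, with the filled point called by edgeR; Nnt alone is called, at −1.64. Right, CPM (log axis) of the tested genes known to differ between C57BL/6 substrains, with young libraries in blue, old in red and means as lines; Wdfy1 is lower and Entpd4 and Ide are higher in old libraries.

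The 3 genes closest to Nnt in pattern were found by Pearson correlation of log2 CPM over the 6 libraries, among 9028 genes at 10 CPM or more. They were Sh2d3c, an adaptor protein (r = 0.996), Cd34, a sialomucin of progenitor surfaces (r = 0.995), and Rhobtb3, a Golgi-associated ATPase (r = 0.994). Their log2 fold changes were −0.71 ± 0.19, −1.11 ± 0.13 and −0.56 ± 0.12 SE. The points are the same 6 libraries and fall into 2 age groups, and 255 genes had r above 0.9, so the likeness is a description.

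Among the other NADPH sources, Idh2 and Me2 were the abundant ones. Idh2, the NADP-dependent isocitrate dehydrogenase of the matrix, lies on chromosome 7 from 80094846 to 80115392 and measured 38.7, 48.6 and 48.8 CPM in the young and 48.0, 33.9 and 47.8 in the old replicates 1 to 3. The groups overlapped, and the log2 fold change of −0.07 ± 0.19 SE changed sign to 0.08 without old replicate 2, whose level was the lowest. Me2, a malic enzyme that can use NAD+ or NADP+, lies on chromosome 18 from 73769903 to 73815449 and measured 77.2, 62.4 and 49.8 CPM in the young and 49.0, 44.5 and 48.0 in the old libraries. All old libraries lay below all young ones, but by less than 1 CPM between young replicate 3 and old replicate 1, and the log2 value of −0.42 ± 0.18 SE did not pass. Its young libraries spread more (a coefficient of variation of 21.7%) than its old ones (4.96%).

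Me3 and Mthfd2 were the low sources. Me3, the NADP-dependent mitochondrial malic enzyme on chromosome 7 from 89632392 to 89854359, had 12, 39 and 23 counts in young and 27, 14 and 32 counts in old libraries, or means of 0.934 ± 0.520 and 1.26 ± 0.179 CPM (SD, n = 3). At this depth its log2 value of 0.43 ± 0.64 SE left no difference detectable. Mthfd2, the methylenetetrahydrofolate dehydrogenase of mitochondria, which is high in proliferating cells, lies on chromosome 6 from 83305691 to 83325908. It measured 7.21, 7.22 and 5.47 CPM in the young and 2.87, 1.01 and 1.33 in the old libraries, from 515 and 109 counts. No old library reached the lowest young one, and the log2 fold change of −1.91 ± 0.50 SE, 3.76-fold lower, was the largest of the 10 in size yet did not pass in edgeR. It moved to −2.48 without old replicate 1, the old library with most Mthfd2. Proliferation genes moved with Mthfd2, for example Mki67, the Ki-67 antigen, from 1681 ± 170 to 759 ± 154 CPM, and their part in its level was not tested.

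**Figure D3:**
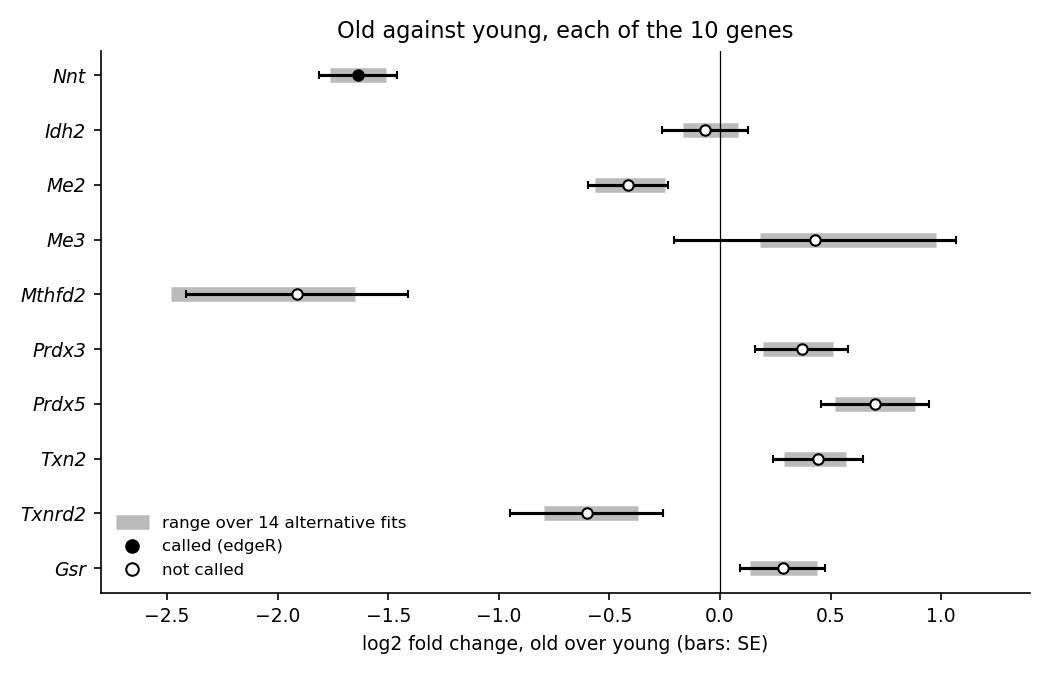
Log2 fold change (old over young) of each of the 10 genes with its SE as a bar and, in grey, the range over 14 alternative fits; the filled point is called by edgeR. Nnt has a narrow range from −1.76 to −1.51, Mthfd2 reaches further down with a wider error, and the range of Idh2 crosses 0.

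Set against transcript length, the share of Nnt among the NADPH sources was lower in old libraries. Levels were computed as TPM, in which counts are divided by transcript length (the longest coding transcript of each gene) and scaled to the same total in each library, so that genes can be compared. In young mice Idh2, Nnt, Me2 and Prdx3 led at 64.0 ± 10.5, 58.9 ± 3.74, 58.3 ± 10.1 and 57.3 ± 11.7 TPM (SD, n = 3), differing by less than their spread. Gsr (46.0 ± 8.93), Txn2 (39.8 ± 7.88) and Prdx5 (35.6 ± 9.74) followed, each differing from the next by less than their spread, and Txnrd2 (10.7 ± 3.30), Mthfd2 (7.77 ± 0.912) and Me3 (0.511 ± 0.284) were far lower. In old mice Prdx3 led at 68.2 ± 5.28 TPM, with Idh2 (56.3 ± 13.2), Prdx5 (52.9 ± 4.69), Gsr (51.4 ± 5.51) and Txn2 (49.7 ± 4.80) next and not separated beyond their spread. Me2 (40.5 ± 4.40) came sixth and Nnt seventh at 17.5 ± 4.20 TPM, above Txnrd2 (6.52 ± 2.17), Mthfd2 (1.92 ± 1.22) and Me3 (0.634 ± 0.0895). Nnt thus went from rank 2 to rank 7 of 10.

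Of the summed TPM of the 5 sources, Nnt made up 30.6%, 31.9% and 30.7% in young replicates 1 to 3 and 15.9%, 14.5% and 14.3% in old replicates 1 to 3. The share was nearly the same within each age, at 31.1% ± 0.684 and 14.9% ± 0.891 (SD, n = 3). Idh2 made up 33.8% ± 5.54 and 47.9% ± 2.84, Me2 30.8% ± 5.45 and 35.1% ± 3.39, and Mthfd2 4.09% ± 0.377 and 1.57% ± 0.741. The 5 together came to 189 ± 7.83 TPM in young and 117 ± 22.6 TPM in old mice, and without Nnt to 131 ± 4.11 and 99.3 ± 18.5 TPM. The 5 genes of peroxide clearance and reduction summed to 189 ± 2.53 TPM in young and 229 ± 14.0 TPM in old mice. These sums rest on the values the genes were chosen with, and a share must fall for some genes where it rises for others.

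**Figure D4:**
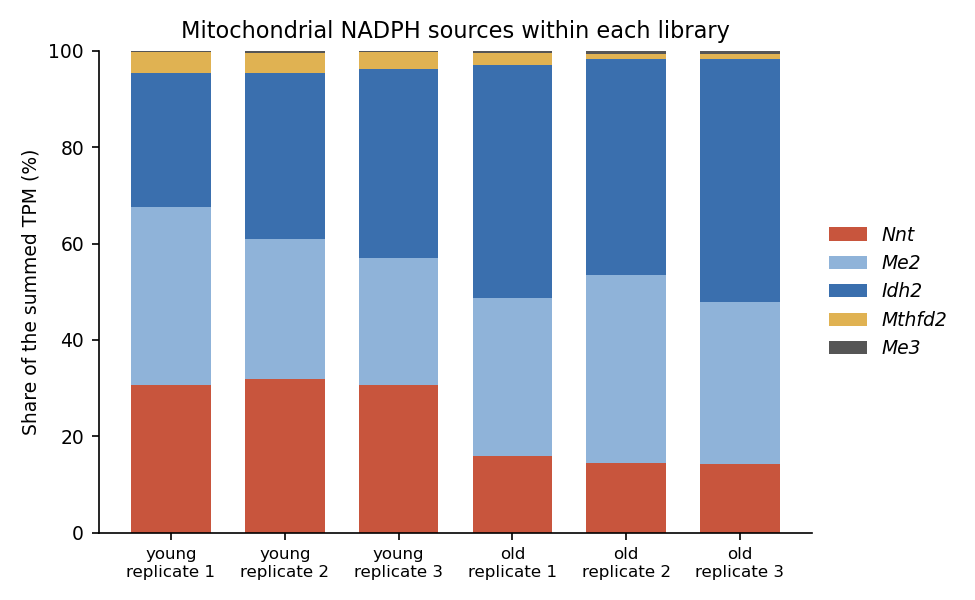
Share of each mitochondrial NADPH source in the summed TPM of the 5, one bar per library and 100% in each. The red part, Nnt, is 30.6% to 31.9% in young and 14.3% to 15.9% in old libraries, and Idh2 is the largest part in all 3 old libraries.

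The peroxiredoxins had positive log2 values. Prdx5, a peroxiredoxin of mitochondria, peroxisomes and cytosol on chromosome 19 from 6906697 to 6910106, measured 13.3, 22.5 and 18.9 CPM in the young and 26.0, 34.6 and 28.6 in the old libraries. All 3 old libraries lay above all young ones, and the log2 fold change of 0.70 ± 0.24 SE did not pass. Prdx3, the peroxiredoxin confined to mitochondria, lies on chromosome 19 from 60864051 to 60874556 and measured 37.1, 41.2 and 25.9 CPM in the young and 39.7, 51.6 and 43.4 in the old libraries. The groups overlapped, with young replicate 3 the lowest, and the log2 value was 0.37 ± 0.21 SE. Both values stayed above 0 in the 14 alternative fits, from 0.52 to 0.88 for Prdx5 and from 0.19 to 0.51 for Prdx3.

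The thioredoxin gene and the 2 reductases did not pass. Txn2, on chromosome 15 from 77915047 to 77929006, measured 38.3, 25.8 and 35.8 CPM in the young and 37.8, 48.9 and 49.2 in the old libraries, a log2 value of 0.44 ± 0.20 SE. Gsr, which restores reduced glutathione in cytosol and mitochondria, lies on chromosome 8 from 33652523 to 33698163 and measured 60.7, 39.4 and 50.6 CPM in the young and 51.1, 64.1 and 68.1 in the old libraries (0.28 ± 0.19 SE). Txnrd2, the selenoprotein that reduces Txn2, lies on chromosome 16 from 18426384 to 18479073 and measured 8.87, 16.2 and 12.5 CPM in the young and 10.3, 8.89 and 5.54 in the old libraries. Its log2 value of −0.60 ± 0.35 SE thus had the opposite sign to that of its substrate, and the groups of all 3 genes overlapped. Prdx5 overlaps Trmt112, a methyltransferase cofactor, on the other strand, and no source here says whether the counting used strand. Trmt112 had a log2 value of −0.20 ± 0.18 SE.

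The spread among replicates was close to that of other genes. The median coefficient of variation of CPM was 21.5% in young and 14.6% in old mice over the 10 genes, and 20.6% and 16.9% over all tested genes. Nnt varied least of the 10 among young mice, at 8.01%, and Me3 varied most, at 55.7%, with the fewest counts. In old mice Mthfd2 varied most, at 57.4%.

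Promoter windows of RefSeq (GRCm38.p6, 250 bases before to 50 after the start site) were held for 7 of the 10 genes: Idh2, Me3, Mthfd2, Prdx3, Prdx5, Txn2 and Txnrd2. The windows of Mthfd2 and Prdx5 are shown because these 2 had the most negative and the most positive log2 values of the 7. The window of Mthfd2 is chr6:83317555-83317854 and that of Prdx5 is chr19:6910057-6910356, both on the minus strand, written 5′ to 3′. The gene annotation places the start of Mthfd2 at 83325908, so its RefSeq window marks a start site inside the gene span. Neither window holds a match to the motifs named below the sequences, so all letters are in lower case.
Mthfd2: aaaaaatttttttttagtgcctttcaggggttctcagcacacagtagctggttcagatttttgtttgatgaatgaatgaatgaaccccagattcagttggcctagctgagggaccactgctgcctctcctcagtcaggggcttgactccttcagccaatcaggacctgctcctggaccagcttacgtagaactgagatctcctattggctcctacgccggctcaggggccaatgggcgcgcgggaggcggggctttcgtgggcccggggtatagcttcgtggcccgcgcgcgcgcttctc
Prdx5: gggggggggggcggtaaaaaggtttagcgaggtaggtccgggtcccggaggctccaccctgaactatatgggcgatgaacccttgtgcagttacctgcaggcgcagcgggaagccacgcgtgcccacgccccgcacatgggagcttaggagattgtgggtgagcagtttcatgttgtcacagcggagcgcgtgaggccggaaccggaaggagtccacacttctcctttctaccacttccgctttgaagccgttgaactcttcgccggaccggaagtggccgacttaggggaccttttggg
Both strands were searched for TGACNNNGC (the core of the antioxidant response element bound by NRF2), TGATGNAA (ATF4), CACGTG (the E-box of Myc), GCGCATGC (NRF1) and TGACGTCA (the cyclic AMP response element). Among the 7 windows the only match was an ATF4 core in Me3, and the motifs were present in 12.4%, 3.97%, 7.15%, 2.71% and 1.79% of all 32851 windows. A window without a match says only that these letters are not in these 300 bases.

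The other genes of mitochondrial NADPH supply held no call. Of 6 listed, 5 were measured (Nadk2, Mthfd2l, Glud1, Shmt2 and Mthfd1l); 0 rose and 0 fell in edgeR, with 1 higher and 2 lower by unadjusted p, while DESeq2 and limma-voom with quality weights each called 1 lower. That gene was Mthfd1l, the mitochondrial formate-producing enzyme one step beyond Mthfd2, at 68.0, 59.6 and 75.0 CPM in young and 45.3, 43.5 and 45.2 CPM in old libraries (log2 −0.60 ± 0.15 SE, adjusted p = 0.0552, edgeR). Shmt2, the serine hydroxymethyltransferase that feeds Mthfd2, stood at 40.8 ± 7.68 and 25.1 ± 6.92 CPM (adjusted p = 0.152, edgeR). In both genes every old library lay below every young one, as in Mthfd2 and Mthfd2l. Nadk2, the gene higher by unadjusted p, separated the other way. It measured 109, 92.8 and 81.1 CPM in young and 125, 120 and 129 CPM in old libraries (log2 0.40 ± 0.14 SE, adjusted p = 0.154, edgeR). In Glud1 the groups overlapped. Over all tested genes the groups did not overlap for 22.4%. Of 7 serine and one-carbon enzymes outside this list, 1 fell and 0 rose in edgeR, with 4 lower and 0 higher by unadjusted p. DESeq2 called 2 lower (Tyms and Phgdh, the entry enzyme of serine synthesis). In all, 6 had negative log2 values, with a list median of −0.39. The gene that fell was Tyms, thymidylate synthase, at 82.6 ± 6.03 CPM in young and 46.7 ± 3.49 in old libraries (SD, n = 3; adjusted p = 0.00797, edgeR), and it was called lower in all 14 alternative fits. Tyms serves DNA synthesis. The lower proliferation genes given above moved with it, and their part in its level was not tested.

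The systems outside mitochondria held 1 call. Of 7 cytosolic NADPH sources 0 passed in edgeR and in limma-voom, with 1 higher and 1 lower by unadjusted p. G6pdx, the entry enzyme of the pentose phosphate pathway, stood at 61.9 ± 6.20 and 80.4 ± 15.2 CPM (adjusted p = 0.284, edgeR), and Mthfd1, the cytosolic folate enzyme, at 63.1 ± 13.2 and 39.5 ± 0.180 CPM (adjusted p = 0.0600, edgeR), which was called lower with DESeq2 (adjusted p = 0.00848) and with 2 other scalings in edgeR, and had adjusted p up to 0.211 in the other alternatives. Of 11 cytosolic thioredoxin and peroxiredoxin genes, 1 rose and 0 fell, with 1 higher and 1 lower by unadjusted p. This was Txnip, the thioredoxin-binding arrestin that also limits glucose uptake, at 1025, 1307 and 883 CPM in young and 1687, 1715 and 1668 CPM in old libraries (log2 0.66 ± 0.13 SE, adjusted p = 0.0126, edgeR). The old libraries were nearly equal and above all young ones, yet the call was lost without any 1 old library (adjusted p = 0.0513, 0.0601 and 0.0565 without old replicates 1, 2 and 3). The gene lower by unadjusted p was Txn1, the cytosolic counterpart of Txn2, with a log2 value of −0.38 ± 0.15 SE (adjusted p = 0.213, edgeR).

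Of 9 NRF2 regulators and targets 0 rose and 1 fell by edgeR, Hmox1, the haem oxygenase that macrophages use to break down haem. It measured 9.15, 15.0 and 16.7 CPM in the young and 3.04, 0.503 and 1.15 in the old libraries (log2 −3.07 ± 0.56 SE, adjusted p = 0.00926, edgeR), and lost its call without old replicate 3 (log2 −2.86, adjusted p = 0.0535). Macrophage markers, with the levels given above, moved the same way, and their part was not tested. The other 8 did not pass by edgeR, with Nfe2l2, which encodes NRF2, at a log2 value of 0.20 and Gclm, a subunit of glutathione synthesis, at 0.39. Gclm was called higher by limma-voom with quality weights (adjusted p = 0.0499) and by edgeR without young replicate 1 (adjusted p = 0.0467).

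Of 10 further mitochondrial peroxide and thiol enzymes, with Sod2, Gpx1 and Gpx4 among them, 0 passed in edgeR, DESeq2 or limma-voom, and 0 had an unadjusted p below 0.05. Gpx4, which reduces lipid peroxides, stood at 28.4 ± 7.75 and 39.3 ± 5.38 CPM, and Srxn1, which repairs overoxidised peroxiredoxins, at 12.8 ± 3.37 and 19.0 ± 3.83 CPM (adjusted p = 0.339 and 0.345, edgeR). Transcripts taken as a measure of mitochondrial content held no call either. Of 18 such genes, from porins and import subunits to matrix chaperones and citrate synthase, 0 passed in edgeR, DESeq2 or limma-voom. None had an unadjusted p below 0.05, and the list median was −0.04. The part of mitochondrial content in the level of Nnt was not tested. Timm23, an inner membrane import subunit, had a log2 value of −0.43 ± 0.20 SE (adjusted p = 0.310, edgeR), and Tomm20, an outer membrane import receptor, one of 0.24 ± 0.14 SE (adjusted p = 0.435, edgeR). The summed level of the 18 ran from 2388 to 3157 CPM in young and from 2560 to 2693 CPM in old libraries, so the groups overlapped.

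**Figure D5:**
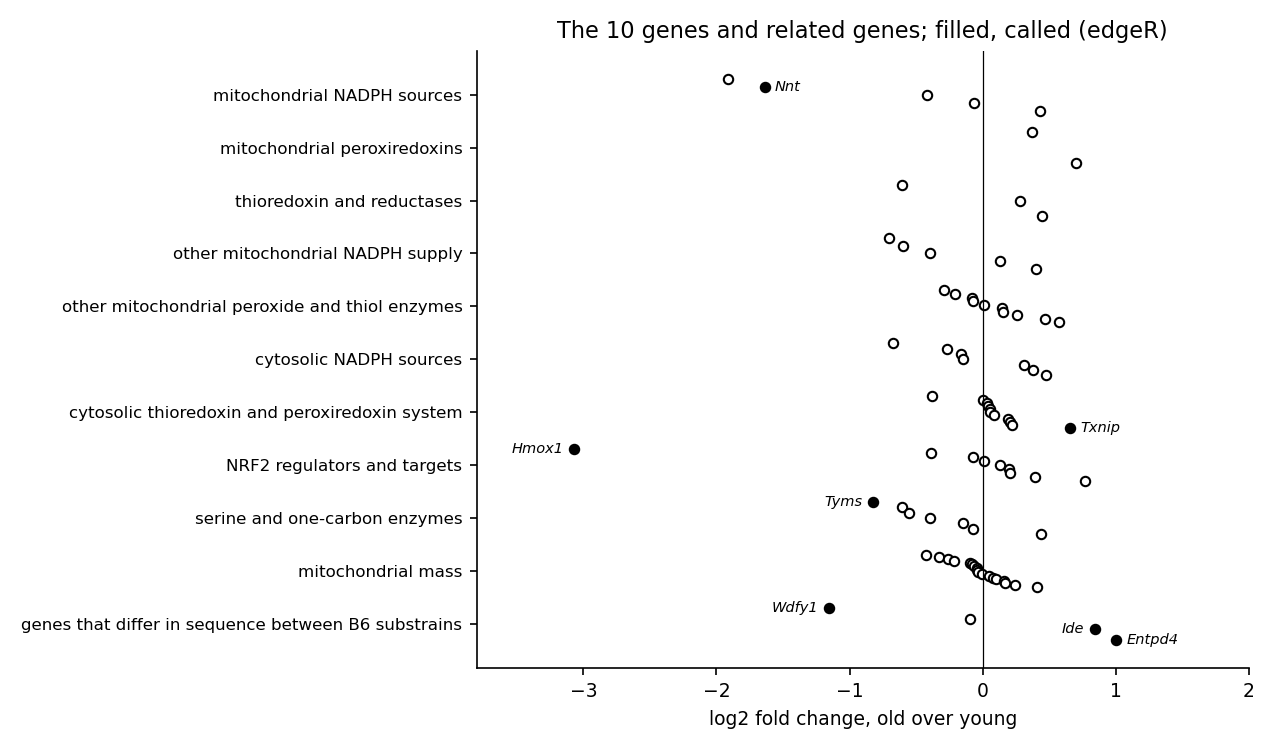
Log2 fold change (old over young) of each tested gene, by list, with filled points called by edgeR and named. Nnt, Hmox1, Tyms and Wdfy1 lie on the lower side and Txnip, Ide and Entpd4 on the higher side. The mitochondrial mass genes lie between −0.43 and 0.41.

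The authors' deposited table holds the same comparison with the sign of young over old. For Nnt the authors' deposited table gives a log2 value of 1.48, for Prdx5 −0.69, for Txnrd2 0.53 and for Me2 0.38. The log2 value of Mthfd2 in the authors' deposited table is 0.56, smaller in size than the −1.91 fitted here for old over young, and its deposited base mean of 75.4 differs from the 90.6 that the counts over size factors give. The deposited values of Idh2, Me3 and Txn2 (0.27, −0.18 and −0.24) also differed in size from those fitted here (−0.07, 0.43 and 0.44). The sign of the deposited values for all 10 genes is opposite to that found here for old over young, as their coding implies. For Idh2 the fitted sign changed without old replicate 2.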

How the data were processed

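Counts of RNA from 3 young and 3 old samples of sorted HSCs were analysed. The deposited table holds estimated counts per gene as whole numbers, so no rounding was needed; GRCm38, FastQC, MultiQC, Salmon and DESeq2 appear in the submitters' processing notes without roles or versions. A second table holds the authors' base mean (a normalised signal), log2 fold change with its error, test score and p-value. Per the file headers it gives no samples, and it was used only where named. Its base mean and the mean count over size factors differed by at most 2% for 77.4% of genes.

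Groups came from the labels. Young replicate 2 has unlike library numbers in its title and description and was matched by title. The design calls the samples of an age biological replicates. The replicate numbers follow sample order and pair nothing. Identifiers were matched to GENCODE M21 (GRCm38), which gave 16301 symbols; a second Nnt entry of that annotation has no row in the table. In R 4.3.3, edgeR 4.0.16 was fitted over all genes (filter of 10 counts and a total of 15, TMM scaling, quasi-likelihood F test of the age term, two-sided, Benjamini-Hochberg adjustment over 14288 genes, threshold 0.05). The SE is the size of the log2 fold change over the square root of F. CPM use TMM-scaled library sizes; log2 CPM for likeness used a prior count of 2. TPM used the longest coding transcript. The fit was tested on simulated data. Alternatives were other scalings and filters, DESeq2 1.42.0, limma 3.58.1 (voom, with and without quality weights) and leaving out each library.

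The 10 genes, the lists, the motifs and the alternatives were chosen with earlier results of these data known. Of each related list, called genes (at most 4) or the 2 with the smallest p are named, with all tested substrain genes and the 3 genes most like Nnt; Nadk2, Mthfd2l, Glud1, Txn1, Phgdh, Nfe2l2, Gclm, the neighbours of Nnt and Trmt112 were added after their values were seen. Marker lists covered HSCs, proliferation, macrophages, erythroid cells, neutrophils, B and plasma cells (0 of 3 tested called, summed 64.1 to 94.8 CPM in young and 83.5 to 109 CPM in old libraries, with Cd79a, Ms4a1 and Pax5 without a row) and T and NK cells (1 of 4, Klrb1c, higher, also known as a marker of old HSCs; Cd3e and Cd3g without a row). Some items, among them 1 gene of the one-carbon list, are not reported here.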

Additional observations from a re-analysis of the deposited data

How the results depend on the processing

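Nnt was called lower in all 14 alternatives (log2 −1.76 to −1.51). The count of the 10 genes called lower, 1 in the fit as reported, was 2 with the DESeq2 Wald test and 2 with limma-voom with quality weights, Mthfd2 being the addition; the cause was not tested. None was called higher in any alternative. The median log2 value of the 10 genes, 0.11, ran from 0.01 to 0.17 over the alternatives, and other scalings moved the median of all genes to between −0.07 and −0.01. Over all tested genes the count of 570 became 1100 with the DESeq2 Wald test and ran from 245 to 473 when 1 library was left out, with 322, 345 and 245 without old replicates 1, 2 and 3; these fits hold fewer samples. Among the genes outside the 10 named by the rule above, Mthfd1l newly passed with library size alone, DESeq2 and limma-voom with quality weights. Mthfd1 newly passed with library size alone, upper quartile scaling and DESeq2. Txnip no longer passed without any 1 old library, and Hmox1 and Entpd4 no longer passed without old replicate 3. Of genes added after their values were seen, Gclm newly passed with limma-voom with quality weights and without young replicate 1, and Phgdh with DESeq2. Calls among the neighbours of Nnt are given above. Among the 10, whose values carry no test here, the log2 value of Mthfd2 without old replicate 1 moved to −2.48 and no other moved by more than 1 SE. No called gene changed sign. Me3, with 12 to 39 counts a library, is limited by depth, as is Mthfd2 in old libraries (12 to 68 counts). No paired analysis was possible because the labels give the groups no shared replicate numbers.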
